A study of Homo sapiens with 4 samples.

Results

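The genes described here are 33 transcriptional targets of the tumour suppressor p53, read by symbol from expression tables of 60766 features in HCT116 cells, a human colon cancer line that keeps a functional p53. They were chosen by name, without a threshold on any measured value, but with earlier results of these data known. All 33 symbols were found once each. The series compared 2 libraries of control HCT116 cells with 2 libraries of HCT116 cells in which a short hairpin RNA lowered ARID1A, the large subunit that helps tether SWI/SNF chromatin remodellers to DNA, to ask how ARID1A bears on immune functions. Both groups were grown in RPMI1640 with serum and received no other treatment that the labels name. Nothing used here states the vector of the control cells, how many hairpins or clones were used, or the time after knockdown.

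p53 is a transcription factor that is held low by the ubiquitin ligase MDM2 and is stabilised when DNA damage, ribosome stress or oncogene signals block MDM2. It binds DNA as a tetramer at a pair of decamers and switches on genes that halt the cell cycle, repair DNA, reset metabolism, kill the cell or feed back on p53 itself. In colon carcinoma cells with intact p53 its best known output is the cell cycle inhibitor p21, the product of CDKN1A. The 33 genes were sorted into 5 roles by what their products are known to do: feedback on p53, arrest, repair, death and survival, and a mixed role of metabolism, RNA and secreted factors.

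Sequences are shown first because the decamer pair is the element that p53 is known to read. RefSeq promoter windows (GRCh38.p14, 250 bases before to 50 after each annotated start) were available for 28 of the 33 genes, and GADD45A, RRM2B, TP53INP1, PHLDA3 and CMBL had no entry. Each window was searched for 2 p53 decamers at most 1 base apart, with at most 3 mismatches to the consensus over the 20 bases and with the central C and G of each decamer in place. The consensus reads the same on both strands, so 1 search covers both. A pair was found for 8 of the 28 genes (28.6%), against 2.91% of the 27305 genes in the table. The 28 genes were listed because they are known p53 targets, so a higher share among them is no independent finding. They also had 40 windows for 28 genes, against 35116 windows for the 27305 genes. The pairs are matches of letters and not measured binding sites. In the lines below capitals mark the pair, and lower case the flank, which is printed only where no annotated exon lies under it.

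MDM2, intron, chr12:68808883-68808982, plus strand: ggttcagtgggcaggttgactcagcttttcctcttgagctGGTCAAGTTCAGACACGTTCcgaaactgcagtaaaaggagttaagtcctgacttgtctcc
SESN1, intron, chr6:109008989-109009077, minus strand: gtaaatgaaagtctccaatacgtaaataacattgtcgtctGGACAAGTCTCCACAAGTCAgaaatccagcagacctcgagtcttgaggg
FAS, exon and UTR of ACTA2, chr10:88991309-88991328, plus strand: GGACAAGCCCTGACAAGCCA
AEN, UTR, chr15:88621306-88621325, plus strand: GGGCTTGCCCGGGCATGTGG
DDB2, UTR, chr11:47214979-47214999, plus strand: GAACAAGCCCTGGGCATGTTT
RPS27L, UTR, chr15:63157527-63157546, minus strand: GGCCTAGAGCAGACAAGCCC
FDXR, UTR, chr17:74872996-74873015, minus strand: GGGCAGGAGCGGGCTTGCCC
GDF15, UTR, chr19:18386186-18386205, plus strand: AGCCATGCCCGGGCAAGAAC

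The DDB2 pair matched the consensus with 0 mismatches and 1 base between the decamers, and it began 6 bases into an annotated transcript. The pairs of MDM2, FAS and AEN had 2 mismatches each, and those of SESN1, RPS27L, FDXR and GDF15 had 3. In MDM2 the pair lay at positions -94 to -75 from the start at the internal promoter, in an intron of the longer transcripts, the place where p53 is known to act on this gene. The FAS pair also lay inside exons of FAS and of the overlapping gene ACTA2. SFN, CDKN1A, BTG2 and PERP had no pair in these windows, which says nothing of sites further away.

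Expression was read as FPKM, fragments per kilobase of transcript scaled to the library total. Library totals, read from the spacing of low values, came to 69000000 to 75750000 fragments a library, so 1 FPKM over a transcript of 2 kb rested on about 117 to 129 fragments. ARID1A itself (GRCh38, chromosome 1, 26693236 to 26782104) had 11.1 and 11.4 FPKM in control cells and 7.05 and 6.13 FPKM in the knockdown, 1.70-fold lower (limma adjusted p = 0.00438; exact two-sided permutation p = 0.333, the smallest that 2 libraries against 2 can give). Of 12 colon epithelial markers 7 passed the filter of a mean of at least 1 FPKM. Among these, 4 rose (KRT8, KRT18, KRT19 and KRT20) and 1 fell (EPCAM, 2.17-fold lower), named after their values were seen. CDH1 and CDX2 did not pass the test. Across all tested features 18.2% rose and 18.9% fell. CDX1 was listed at 0 in every library, and CDH17, VIL1, LGALS4 and CEACAM5 were below the filter. Leukocyte markers summed to 0.56 to 1.26 FPKM, endothelial markers to 0.163 to 0.209 FPKM and fibroblast markers to 3.66 to 6.25 FPKM, most of it COL1A1. The colon markers summed to 3030 and 2920 FPKM in control cells and 4020 and 4170 FPKM in the knockdown, and the mitochondrial share of all FPKM was 4.29% to 4.35% in the former and 5.65% to 6.04% in the latter. Their part in the results was not tested. No label ties the replicates to separate cultures, so p-values measure the spread between these libraries, which may be technical.

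Most of the p53 targets were higher in the knockdown. Of 30 tested targets, 18 rose, 1 fell and 11 did not pass (limma on log2(FPKM + 1), Benjamini-Hochberg adjusted p under 0.05 over 13605 tested features). Across all tested features 18.2% rose and 18.9% fell, 37.1% in all. The median difference was 0.36 on the log2(FPKM + 1) scale for the targets and -0.003 for all tested features. The rises were small: 1.20-fold to 2.22-fold with a median of 1.40-fold, and 7 of the 18 reached 1.5-fold. In 25 of the 30 targets both knockdown libraries were above both controls, as in 35.8% of all tested features. In 3 both were below, and in MDM2 and CMBL the groups overlapped. All 30 tested targets had a control mean of at least 1 FPKM, so none passed the filter only through the knockdown libraries.

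When any 1 library was left out, 12 to 17 targets rose, and 12 of the rises passed in each of the 4 fits. They were SFN, PERP, BTG2, SESN1, DDB2, FDXR, AEN, CDKN1A, ZMAT3, PLK3, PPM1D and TRIAP1. The other 6 rises, and the fall of GADD45A, were lost without at least 1 library and are given with those values below. Positions are on GRCh38.

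**Figure D1:**
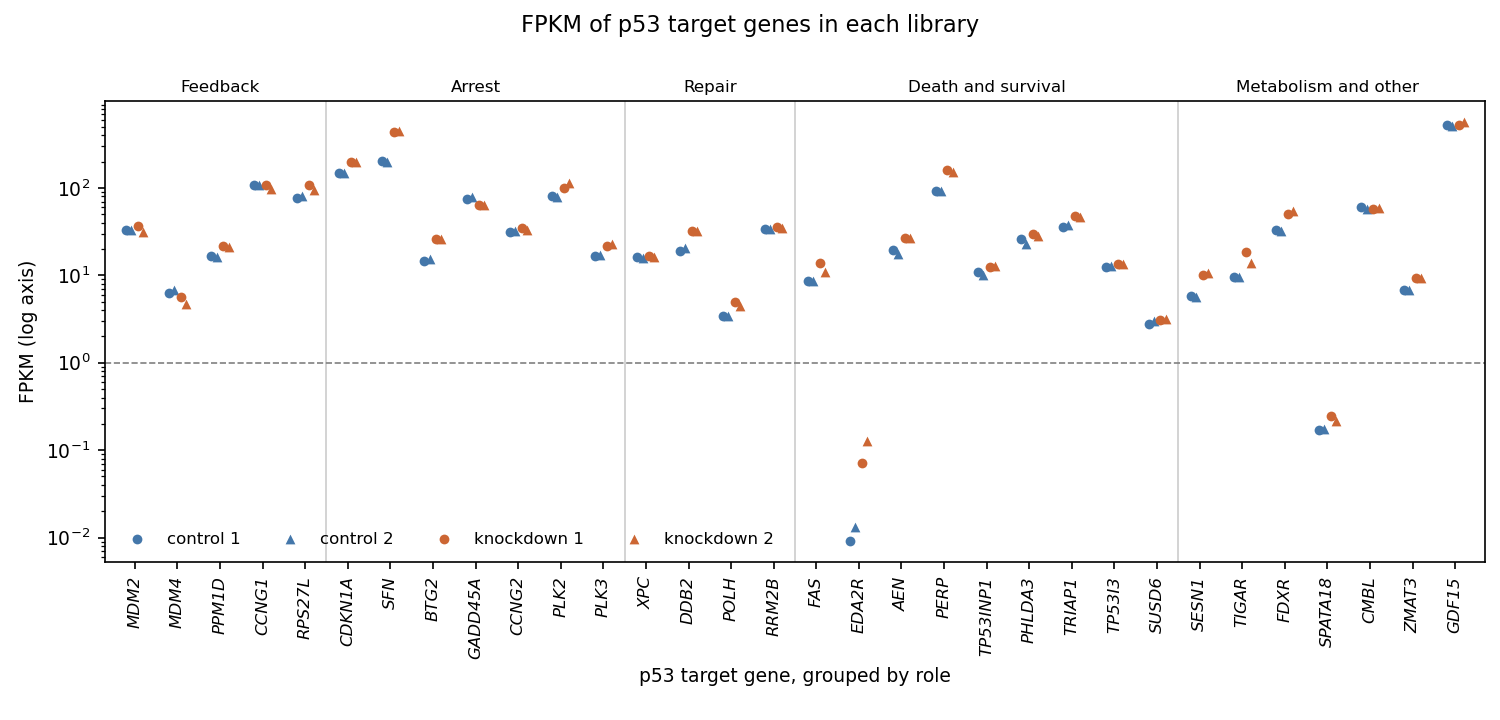
FPKM on a log axis for the 32 p53 targets with a value above 0, grouped by role; blue points are the 2 controls, orange points the 2 knockdown libraries, circles replicate 1 and triangles replicate 2, and the dashed line is the filter at 1 FPKM. SFN stands at 202 and 201 FPKM under control conditions, against 442 and 452 FPKM after knockdown, while EDA2R and SPATA18 lie below the filter in all libraries.

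The arrest genes held the largest rise and the only fall. Of 7 tested, 5 rose (71.4%), 1 fell (14.3%) and 1 did not pass, against 18.2% and 18.9% of all tested features. The median difference was 0.39 (log2). SFN (chromosome 1, 26863149 to 26864456), whose product 14-3-3 sigma keeps cyclin B and CDK1 in the cytoplasm and so blocks entry into mitosis, was at 202 and 201 FPKM in control cells and 442 and 452 FPKM in the knockdown. The groups lay far apart, each pair within a few percent. The change was 2.22-fold, a log2 difference of 1.15 (SE 0.033; limma adjusted p = 3.18e-04), and it ranked as rise number 110 among the 13605 tested features. BTG2 (chromosome 1, 203305491 to 203309602), an antiproliferative factor that promotes mRNA deadenylation, was at 14.6 and 15.3 FPKM in control cells and 26.1 and 26.3 FPKM in the knockdown. It rose 1.75-fold (log2 difference 0.77, SE 0.046; adjusted p = 0.00106).

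CDKN1A (chromosome 6, 36676460 to 36687339), which encodes the inhibitor p21 of cyclin-dependent kinases, was at 147 and 147 FPKM in control cells and 197 and 198 FPKM in the knockdown. That gap was far wider than the spread within either pair, but the rise was only 1.34-fold (log2 difference 0.42, SE 0.032; adjusted p = 0.00163). PLK3, a stress-responsive kinase, rose from 16.5 and 17.0 FPKM to 21.7 and 22.6 FPKM. PLK2, a related kinase of the centriole cycle, rose from 81.4 and 79.2 FPKM to 99.1 and 113 FPKM, with the knockdown pair further apart than the controls. The rise of PLK2 was lost without control replicate 1 (adjusted p = 0.0696) or control replicate 2 (0.0806).

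GADD45A (chromosome 1, 67685201 to 67688334), a stress sensor that binds p21 and PCNA and restrains CDK1, went against the rest of its role. It was at 75.8 and 79.9 FPKM in control cells and 63.4 and 64.3 FPKM in the knockdown, 1.22-fold lower (log2 difference -0.28, SE 0.042; adjusted p = 0.00890). The groups did not overlap, and the call was lost without control replicate 2 (adjusted p = 0.0592). CCNG2, an unconventional cyclin that restrains proliferation, was at 31.0 and 32.0 FPKM in control cells and 34.8 and 32.8 FPKM in the knockdown (adjusted p = 0.174).

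**Figure D2:**
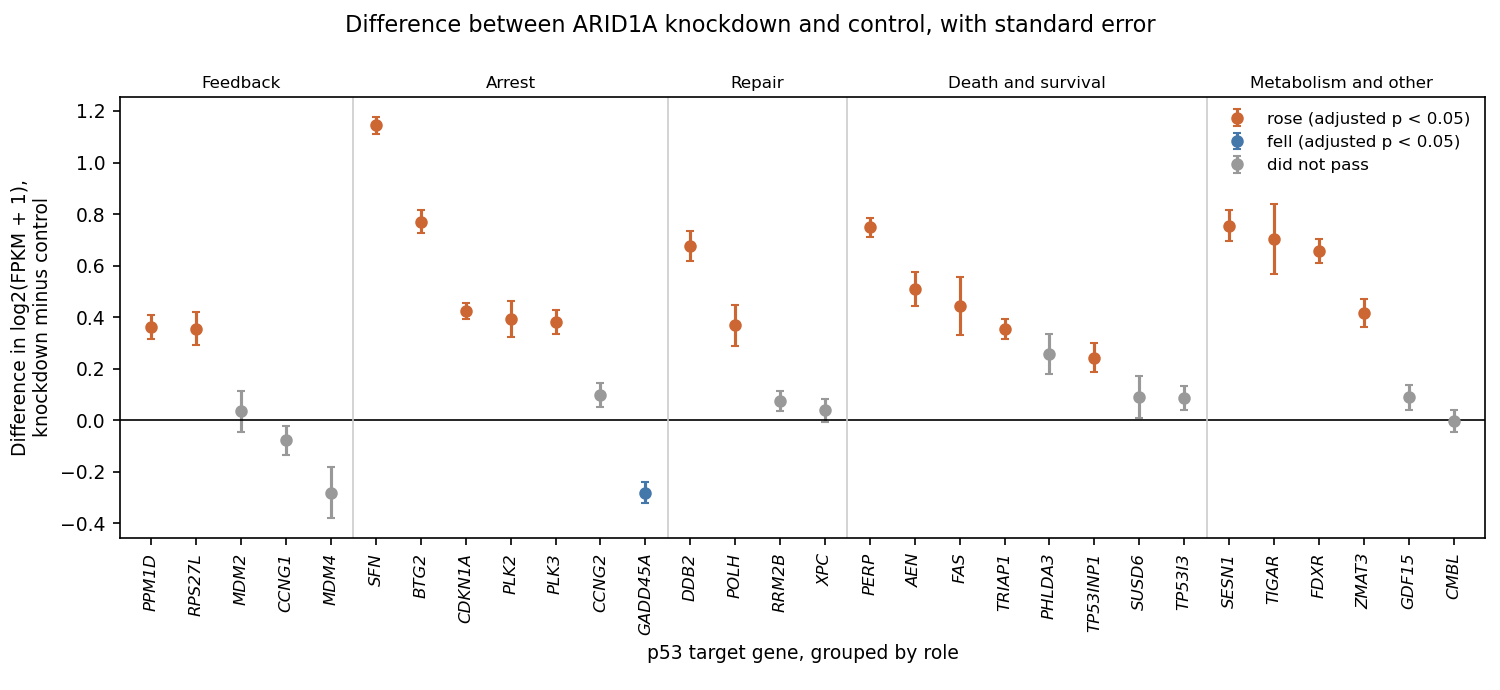
Difference in log2(FPKM + 1), knockdown minus control, for the 30 tested p53 targets by role; points are estimates from 2 libraries a group, bars are standard errors, and colour shows the call at an adjusted p under 0.05. SFN is the highest at 1.15, GADD45A (-0.28) is the lower of the called genes, and MDM2, XPC and CMBL lie near 0.

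The feedback genes did not move together. Of 5 tested, 2 rose and 3 did not pass, while of all tested features 18.2% rose and 18.9% fell. Their median difference was 0.035 (log2), against -0.003 for all tested features. MDM2 (chromosome 12, 68808177 to 68850686), which carries the decamer pair shown above and whose product marks p53 for degradation, was at 33.4 and 32.8 FPKM in the controls. It was at 36.7 and 31.4 FPKM in the knockdown, 1 library above and 1 below both controls (log2 difference 0.035, SE 0.080; adjusted p = 0.757). Its estimate changed sign without knockdown replicate 1 (-0.073; adjusted p = 0.325). The ratio of CDKN1A to MDM2 was 4.40 and 4.47 without knockdown, below the 5.36 and 6.31 with it.

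MDM2 is overlapped by 3 transcribed features, so its value is uncertain. AC025423.2, which lies inside MDM2 on the same strand, was at 38.9 and 32.7 FPKM in control cells and 45.3 and 44.3 FPKM in the knockdown. CPM, which encodes carboxypeptidase M on the opposite strand, was at 33.6 and 18.0 FPKM in control cells and 30.9 and 13.7 FPKM in the knockdown. Within each group CPM differed more between replicates than MDM2 did, and the part of these features in the MDM2 value was not tested.

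MDM4, the partner that covers the activation domain of p53, was at 6.33 and 6.72 FPKM in control cells and 5.71 and 4.71 FPKM in the knockdown. Both knockdown libraries were below both controls, but the difference of -0.28 (log2, SE 0.099) did not pass (adjusted p = 0.0831). PPM1D, the phosphatase WIP1 that switches off p53 and its upstream kinases, rose from 16.7 and 16.1 FPKM to 21.7 and 20.9 FPKM, 1.30-fold (adjusted p = 0.00653).

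RPS27L, a ribosomal protein paralog that influences MDM2, was at 77.5 and 80.4 FPKM in control cells and 107 and 95.7 FPKM in the knockdown. This rise (adjusted p = 0.0153) was lost without control replicate 1 (0.0876) or 2 (0.0680), and RPS27L can share reads with RPS27. RPS27 was at 9270 ± 34.0 FPKM in control cells and 8590 ± 521 FPKM in the knockdown (SD, n = 2; limma adjusted p = 0.181), and read sharing was not tested. CCNG1, which recruits a phosphatase to MDM2, was at 108 and 108 FPKM in control cells and 108 and 97.2 FPKM in the knockdown (adjusted p = 0.327).

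The repair genes split evenly. Of 4 tested, 2 rose and 2 did not pass, while of all tested features 18.2% rose and 18.9% fell. Their median difference was 0.22 (log2), against -0.003 for all tested features. DDB2 (chromosome 11, 47214465 to 47239240), which finds ultraviolet lesions for nucleotide excision repair and holds the exact decamer pair, was at 18.9 and 20.8 FPKM in control cells and 31.9 and 32.6 FPKM in the knockdown. It rose 1.63-fold (log2 difference 0.68, SE 0.058; adjusted p = 0.00229). XPC, which recognises distorted DNA in the same pathway, was at 16.1 and 16.0 FPKM in control cells and 16.7 and 16.3 FPKM in the knockdown (log2 difference 0.039, SE 0.045; adjusted p = 0.526). The 2 lesion sensors of that pathway thus had unlike values, though the difference between them was not tested.

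POLH, the polymerase that copies past ultraviolet lesions, was at 3.44 and 3.44 FPKM in control cells and 4.99 and 4.48 FPKM in the knockdown. This rise (adjusted p = 0.0240) did not pass without either control replicate (0.0942 for both) or without knockdown replicate 1 (0.0940), leaving DDB2 as the only rise of its role in those fits. GTPBP2, which overlaps POLH, was lower in the knockdown libraries (16.7 and 17.1 FPKM) than in the controls (23.7 and 24.7 FPKM). RRM2B, the p53-inducible subunit of ribonucleotide reductase, was at 33.5 and 33.8 FPKM in control cells and 36.1 and 35.0 FPKM in the knockdown (adjusted p = 0.195).

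Genes of cell death and survival rose in the main. Of 9, 8 were tested, of which 5 rose (62.5%), 0 fell and 3 did not pass, with a median difference of 0.31 (log2). Across all tested features 18.2% rose and 18.9% fell. In all 8 both knockdown libraries were above both controls, as in 35.8% of all tested features. PERP (chromosome 6, 138088505 to 138107419), a membrane protein of desmosomes and of p53-dependent death, was at 93.3 and 92.7 FPKM in control cells and 160.0 and 154 FPKM in the knockdown. It rose 1.69-fold (log2 difference 0.75, SE 0.037; adjusted p = 6.57e-04). AEN, a nuclease that enhances apoptosis, was at 19.7 and 17.4 FPKM in control cells and 27.0 and 26.6 FPKM in the knockdown, a rise of 1.44-fold (adjusted p = 0.00642). TRIAP1, which by contrast opposes apoptosis through mitochondrial lipid transport, rose from 36.2 and 37.4 FPKM to 47.7 and 46.8 FPKM, 1.29-fold (adjusted p = 0.00441).

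FAS (chromosome 10, 88990531 to 89017059), the death receptor, was at 8.72 and 8.70 FPKM in control cells and 13.7 and 10.8 FPKM in the knockdown. The knockdown pair was far apart, and the rise of 1.41-fold (adjusted p = 0.0366) was lost without control replicate 1 (0.131), control replicate 2 (0.133) or knockdown replicate 1 (0.0603). Without the last of these its log2 difference was 0.29 in place of 0.44. ACTA2, which overlaps the start of FAS on the opposite strand, was at 10.5 and 10.999 FPKM in control cells and 14.2 and 15.4 FPKM in the knockdown, and whether the counting separated reads of the 2 genes by strand is not stated. AL157394.2, a short feature inside FAS, was at 37.4 FPKM in control replicate 2 and at 0 in the others. LACTB overlaps the 3′ end of RPS27L, NDUFAF6 spans TP53INP1 and FAM228B spans TP53I3, each on the opposite strand. The part of these features in the values was not tested.

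TP53INP1, which links p53 to autophagy and apoptosis, was at 10.9 and 10.2 FPKM in control cells and 12.5 and 12.8 FPKM in the knockdown (adjusted p = 0.0277). No fit with 1 library left out kept this call (0.0672 and 0.117 without control replicates 1 and 2, 0.0837 and 0.104 without knockdown replicates 1 and 2). PHLDA3, a repressor of AKT, was at 26.0 and 22.6 FPKM in control cells and 30.1 and 28.4 FPKM in the knockdown (adjusted p = 0.0575; 0.0479 without control replicate 1). With these losses and gains the death and survival role had 3 rises without control replicate 2 or without knockdown replicate 1.

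Among the remaining death genes, TP53I3, a quinone oxidoreductase tied to oxidative stress, was at 12.6 and 12.8 FPKM in control cells and 13.5 and 13.5 FPKM in the knockdown (adjusted p = 0.202). SUSD6 was at 2.77 and 2.97 FPKM in control cells and 3.06 and 3.18 FPKM in the knockdown (adjusted p = 0.423). EDA2R, a receptor of the tumour necrosis factor family, was below the filter and not tested, at 0.00920 and 0.0131 FPKM in control cells and 0.0708 and 0.126 FPKM in the knockdown. Levels that low rest on very few fragments.

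Metabolic and other targets held several of the larger rises. Of 8, 6 were tested, of which 4 rose (66.7%, against 18.2% of all tested features), 0 fell and 2 did not pass. The median difference was 0.54 (log2). SESN1 (chromosome 6, 108986437 to 109094819), a stress sensor that restrains mTORC1, was at 5.82 and 5.67 FPKM in control cells and 10.1 and 10.7 FPKM in the knockdown. It rose 1.81-fold (log2 difference 0.75, SE 0.060; adjusted p = 0.00194). FDXR (chromosome 17, 74862497 to 74873031), which passes electrons to mitochondrial ferredoxins, was at 33.4 and 32.4 FPKM in control cells and 51.0 and 53.8 FPKM in the knockdown. This was a rise of 1.60-fold (log2 difference 0.66, SE 0.046; adjusted p = 0.00140). ZMAT3, an RNA-binding regulator of splicing, rose from 6.76 and 6.83 FPKM to 9.44 and 9.35 FPKM, 1.38-fold (adjusted p = 0.00597).

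TIGAR (chromosome 12, 4307763 to 4360028), a phosphatase that diverts glucose from glycolysis, was at 9.51 and 9.61 FPKM in control cells and 18.7 and 14.0 FPKM in the knockdown. Both knockdown libraries were well above the controls but unlike each other, and the rise of 1.71-fold (adjusted p = 0.0176) was lost without control replicate 1 (0.0860) or 2 (0.0814). The secreted stress cytokine GDF15, at the highest level per length of the 33, was at 521 and 514 FPKM in control cells and 529 and 573 FPKM in the knockdown. Its difference of 0.089 (log2, SE 0.049) did not pass (adjusted p = 0.215), and it changed sign under quantile normalization (-0.018; adjusted p = 0.763).

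CMBL, a hydrolase, was at 60.3 and 57.5 FPKM in control cells and 57.8 and 59.6 FPKM in the knockdown (log2 difference -0.004, SE 0.042; adjusted p = 0.946). SPATA18, which takes part in mitochondrial quality control, was below the filter at 0.171 and 0.173 FPKM in control cells and 0.247 and 0.213 FPKM in the knockdown. The long noncoding RNA TP53TG1 was listed at 0 in all 4 libraries. These last 2 genes were not tested.

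Of the 8 genes with a decamer pair, 6 rose (DDB2, SESN1, FDXR, AEN, FAS and RPS27L) and 2 did not pass (MDM2 and GDF15). The rises of FAS and RPS27L did not hold in every fit with a library left out, as given above. Of the 28 genes with a window, 17 rose, and of all tested features 18.2% rose. SFN, PERP, BTG2 and CDKN1A rose with no pair in their windows, and MDM2 had a pair without a call.

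Paralogs that are not on the list give the family context. Of 25 tested paralogs, 5 rose, 6 fell and 14 did not pass, with a median difference of -0.047 (log2). Both shares were close to those of all tested features, of which 18.2% rose and 18.9% fell. BTG1, a known p53 target in its own right, fell from 48.8 ± 1.37 to 33.1 ± 1.51 FPKM (SD, n = 2; limma adjusted p = 0.00260), against the rise of BTG2. POLI, a polymerase related to POLH, fell from 9.37 ± 0.364 to 6.50 ± 0.313 FPKM (limma adjusted p = 0.00721). The cyclin gene CCNI fell from 191 ± 4.05 to 140.1 ± 2.997 FPKM (limma adjusted p = 0.00215).

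GADD45B fell from 25.3 ± 0.241 to 18.0 ± 2.33 FPKM (SD, n = 2; limma adjusted p = 0.0176; 0.0830 and 0.0869 without control replicate 1 or 2), in the direction of GADD45A. Of the 6 other 14-3-3 genes, YWHAQ and YWHAZ, named after their values were seen, rose 1.26-fold and 1.14-fold, and the other 4 did not pass. The call of YWHAZ was lost without control replicate 1 (limma adjusted p = 0.122) or 2 (0.117). With 1 library left out, 1 to 5 paralogs rose and 3 to 7 fell. The rises numbered 1 without either control replicate and 3 without knockdown replicate 2, and the falls 3 without either control replicate.

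**Figure D3:**
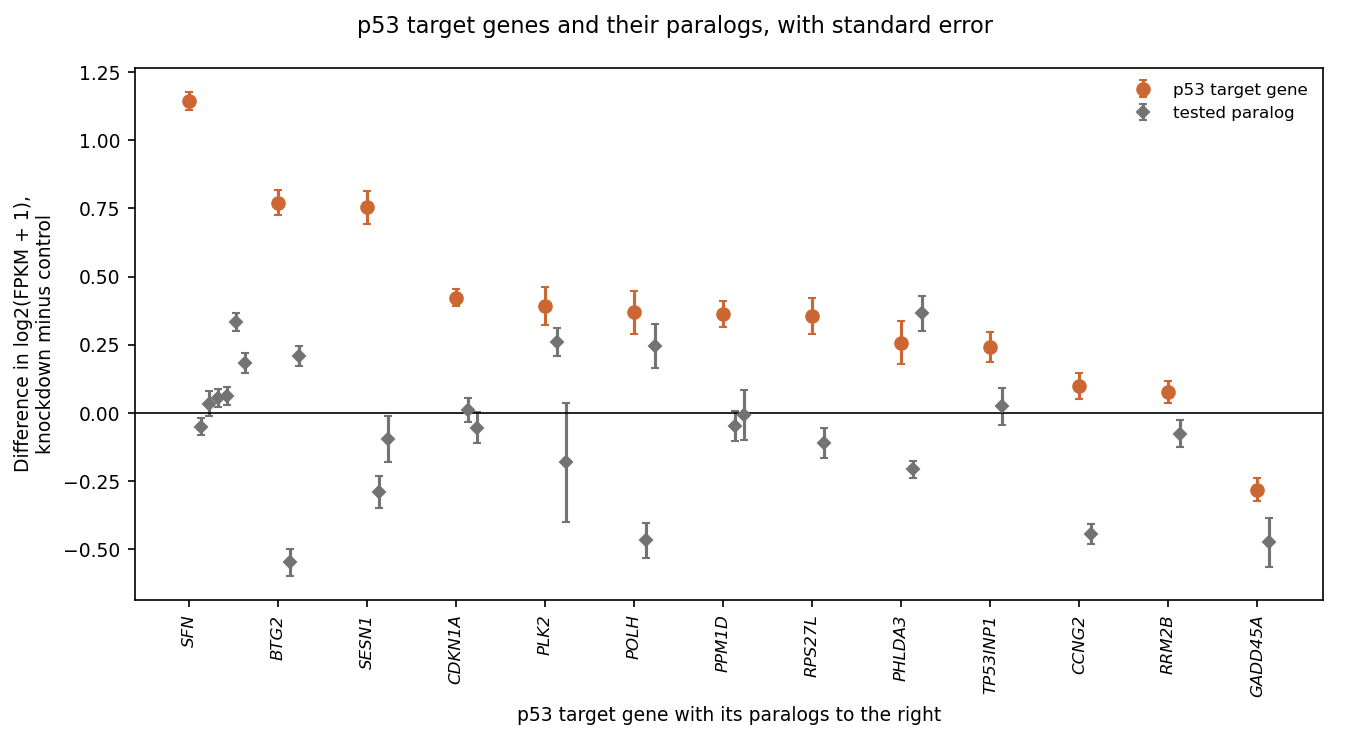
Difference in log2(FPKM + 1), knockdown minus control, for p53 targets (orange circles) and their tested paralogs (grey diamonds, to the right of each), with standard errors from 2 libraries a group. SFN at 1.15, BTG2 at 0.77 and SESN1 at 0.75 stand above all of their paralogs, and the paralog BTG1 lies at -0.55. The paralog PHLDA2 (0.365) lies above PHLDA3 (0.258).

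Of 38 tested further p53 targets outside the 33, 14 rose (36.8%), 9 fell (23.7%) and 15 did not pass. Of all tested features 18.2% rose and 18.9% fell. The median difference of this list was 0.13 (log2). SERTAD1, a cell cycle and transcription regulator, rose from 18.9 ± 0.196 to 30.2 ± 0.949 FPKM (SD, n = 2; limma adjusted p = 0.00140), and the adaptor gene TRAF4 from 39.8 ± 0.526 to 60.4 ± 1.91 FPKM (0.00142). ATF3, a stress-induced transcription factor that is also driven by ATF4, fell from 26.5 ± 1.47 to 14.4 ± 0.547 FPKM (limma adjusted p = 0.00143). BTG1 fell as given above. Of its cell death and survival genes, BAX, BBC3, APAF1 and TNFRSF10C rose and PMAIP1, TNFRSF10B and TNFRSF10D fell, all named after their values were seen. The call of BAX was lost without control replicate 1 or 2, and that of TNFRSF10C without any 1 library. The number of rises in this list was 7 without control replicate 1, 6 without control replicate 2 and 9 without knockdown replicate 2.

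Upstream of the targets, 10.3% of the p53 family and its regulators rose and 17.2% fell, against 18.2% and 18.9% of all tested features. Of 29 tested, 3 rose, 5 fell and 21 did not pass, with a median difference of -0.007 (log2). The amount or modification of the p53 protein was not measured.

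TP53BP1, a DNA break factor that binds p53, rose from 10.5 ± 0.191 to 12.4 ± 0.433 FPKM (SD, n = 2; limma adjusted p = 0.0339), a call lost without any 1 of the 4 libraries (0.0733 to 0.137). The damage kinase gene ATM was at 6.25 ± 0.860 and 5.61 ± 0.777 FPKM (limma adjusted p = 0.447). The acetyltransferase gene KAT5 fell from 34.0 ± 2.51 to 26.3 ± 1.58 FPKM (0.0196; 0.0846 without control replicate 2 and 0.0732 without knockdown replicate 1). CDKN2A, whose ARF product inhibits MDM2, fell from 50.5 ± 1.93 to 40.3 ± 1.08 FPKM (limma adjusted p = 0.00845; 0.0561 without control replicate 2).

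The kinase gene HIPK2 fell from 7.48 ± 0.351 to 5.94 ± 0.0959 FPKM (SD, n = 2; limma adjusted p = 0.0247), a call lost without any 1 library (0.0671 to 0.110). RPL5, a ribosomal protein that binds MDM2, fell from 1869 ± 2.53 to 1534 ± 2.06 FPKM (limma adjusted p = 0.00481; 0.0588 and 0.0589 without control replicate 1 or 2). With 1 library left out, 0 to 2 genes of this list rose and 1 to 3 fell. The rises numbered 0 without either control replicate and 1 without knockdown replicate 1. The falls numbered 1 without control replicate 2, 2 without control replicate 1 or knockdown replicate 1, and 3 without knockdown replicate 2.

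Genes that p53 is known to repress through p21 and the DREAM complex, mostly drivers of mitosis, had 16.7% risen and 4.17% fallen, against 18.2% and 18.9% of all tested features. Of 24 tested, 4 rose, 1 fell (MYBL2, named after its value was seen) and 19 did not pass, with a median difference of -0.014 (log2). CDC20, an activator of the anaphase-promoting complex, rose from 45.2 ± 1.32 to 65.4 ± 1.70 FPKM (SD, n = 2; limma adjusted p = 0.00208). CCNB1, which encodes cyclin B1, rose from 67.1 ± 4.24 to 85.1 ± 1.64 FPKM (0.0109; 0.0512 without control replicate 2). The rises of BUB1 and PLK1 were lost without control replicate 1 (limma adjusted p = 0.0552 and 0.101) or 2 (0.0646 and 0.0779), that of BUB1 also without knockdown replicate 1 (0.0533) and that of PLK1 without knockdown replicate 2 (0.0592). The fall of MYBL2 did not pass without either control replicate (0.0713 and 0.0716) or without knockdown replicate 1 (0.0532). The rises of this list numbered 2 and 1 without control replicates 1 and 2.

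Several p53 targets, among them GADD45A, GDF15 and ATF3, are also known targets of the amino acid and endoplasmic reticulum stress factors ATF4 and CHOP. All 9 tested genes of that response fell, against 18.9% of all tested features, with a median difference of -1.39 (log2). VLDLR was listed at 0 in all 4 libraries. The cystine transporter gene SLC7A11 fell 4.78-fold, PHGDH 3.62-fold, TRIB3 3.49-fold and ASNS 3.18-fold. Their part in the values of GADD45A and GDF15 was not tested.

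**Figure D4:**
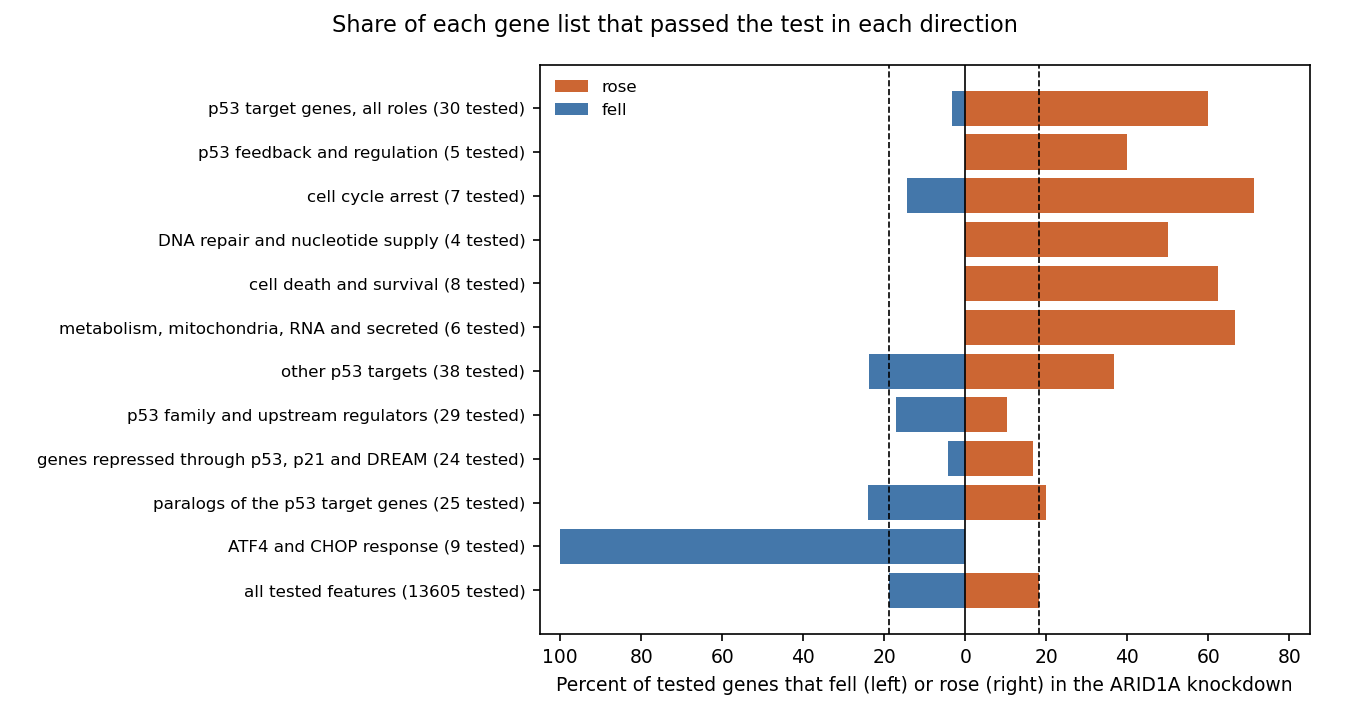
Percent of tested genes that rose (orange, to the right) or fell (blue, to the left) in the knockdown for the p53 targets, their 5 roles and the other lists; dashed lines mark the shares over all 13605 tested features (18.2% and 18.9%). The p53 targets reach 60.0% risen and 3.33% fallen, further p53 targets 36.8% and 23.7%, and the ATF4 and CHOP genes 0% and 100%.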

How the data were processed

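Total RNA of 2 control and 2 ARID1A knockdown libraries of HCT116 cells was sequenced, per the labels' protocols. The authors deposited FPKM values, 1 per gene symbol and locus, per the file headers; STAR, Cufflinks and GRCh38 are named in the submitters' processing notes. Their versions, annotation, strand setting and filters are not given here. Of 60811 rows, 45 that repeat a pseudoautosomal gene on chromosome Y were removed, 2347 values below 1e-9 were set to 0, and 1 was added to each start. FPKM are not counts, so log2(FPKM + 1) was tested with limma 3.58.1 (R 4.3.3; lmFit, eBayes with trend) over features with a mean of at least 1 FPKM. Adjusted p-values are Benjamini-Hochberg values, called under 0.05. Totals came from genes with 1 GENCODE 29 transcript of at least 1500 bases, where 83.4% to 86.5% of low values were whole within 0.1 fragment.

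Members, roles and lists were chosen with earlier results of these data known. The named genes are ARID1A, all 33 targets, TP53BP1, ATM and RPS27, and of each other list up to 4 called genes by absolute log2 difference, or the highest gene where none is called; 1 further gene is not reported here. Simulated data were built from the 13605 tested features of this comparison, with 200 of them changed in each of 5 runs. The fit recovered 0.8% of features with a true log2 difference of 0.25 and 41.6% of those with 0.5. It recovered 79.2% of those with 1 and 96.4% of those with 2, while 5.38% of calls were false. In the data themselves 5046 features were called, so these rates need not hold for them. Alternatives were another pseudocount, 3 filters, 3 scalings, no trend, the replicate number as a block, and each library left out in turn.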

Additional observations from a re-analysis of the deposited data

How the results depend on the processing

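With 2 libraries a group the spread rests on few values, and leaving out 1 assumes that the lone library varies like the other group. ARID1A kept its direction and its call under all 13 alternatives. The number of targets that rose was 18 in the fit reported and 12 to 19 under the alternatives, and the 1 fall became 0 without control replicate 2. The number of tested features called was 5046, 2786 with no filter on low values, and 2146 to 3368 with 1 library left out. The median difference of the targets (0.36) was 0.295 to 0.371 with 1 library left out. With no filter, FAS, PLK2, POLH, RPS27L, TIGAR and TP53INP1 were no longer called (adjusted p of 0.0722 to 0.138). FAS was also lost with a filter of 0.1 FPKM (0.0562) and without the trend (0.0546), and PHLDA3 passed with a filter of 5 FPKM (0.0450) and under median-ratio scaling (0.0485).

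Signs changed only near 0: with 1 library left out CMBL ranged from -0.037 to 0.029 and MDM2 from -0.073 to 0.144, and GDF15 was at -0.018 under quantile normalization, on the log2 scale. The cause was not tested. The labels give both groups the replicate numbers 1 and 2 but do not say that these mark a shared culture, and same-numbered libraries did not deviate together (r = -0.0099 across 13605 features, which are not independent replicates). With the replicate block 18 targets rose and 1 fell, TP53INP1 was lost (0.0544) and PHLDA3 gained (0.0375), and 4126 features were called. The alternatives for genes and lists outside the 33 were added after the data were seen.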
